A study of Mus musculus with 6 samples.

Results

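Interstitial macrophages are the resident macrophages of the lung tissue around vessels, airways and nerves, as distinct from the alveolar macrophages of the air spaces, and they are known for clearing debris and for producing complement C1q. C1q is built from the products of *C1qa*, *C1qb* and *C1qc*. It binds immune complexes and apoptotic cells, starts the classical complement pathway and marks dying cells for uptake by phagocytes. The 8 genes described here were chosen by gene symbol from the table of 54532 genes, and each symbol had 1 entry. They are *C1qa*, *C1qb* and *C1qc*, *Csf1r*, which encodes the receptor for the macrophage growth factors CSF1 and IL-34, and the scavenger and uptake receptor genes *Mrc1*, *Cd163*, *Lyve1* and *Folr2*. The question was whether their RNA differed between the lungs of WT mice and of mice that lack isthmin-1 (ISM1), a secreted protein of the lung.

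RNA was sequenced from PBS-perfused whole lungs of untreated mice labelled 2 months old, 3 WT and 3 *ISM1-/-*, with 1 library per genotype and replicate number. The WT mice were C57BL/6J animals that had been purchased, and the knockout mice had been made in-house on the same background, so a difference of genotype and one of origin cannot be told apart. The authors deposited raw read counts per gene on the mouse genome GRCm38, with library totals from 37606133 to 42345042, and the same data as FPKM, which scales counts by gene length and library size. Counts are given here as CPM, scaled by library size and TMM factors in edgeR, and a gene was counted as changed at a Benjamini-Hochberg adjusted p under 0.1 in the quasi-likelihood test of edgeR, fitted on all 18689 genes with 0.5 CPM or more in any library. The targeted gene *Ism1* averaged 78.9 CPM in WT (SD 2.88, n = 3) and 69.1 CPM where the label read *ISM1-/-* (SD 5.72, n = 3), so transcript from the locus was still counted there and the labels alone give each library's genotype. *Sftpc*, a defining gene of alveolar type 2 cells, averaged 12412 CPM over the 6 libraries. In whole tissue, fewer cells of a type and less RNA per cell cannot be told apart.

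All 8 genes passed the filter on low counts, and 1 of the 8, *Folr2*, changed between the genotypes, being lower in *ISM1-/-*. Over all genes tested, 4.72% passed the same threshold, 3.34% with a lower and 1.38% with a higher level in *ISM1-/-*. The other 7 genes did not pass, and their groups overlapped, while groups without overlap were found for 21.6% of all genes, 12.3% lower and 9.33% higher in *ISM1-/-*. Their mean differences were small, with log2 fold changes (*ISM1-/-* over WT) from −0.23 for *Cd163* to 0.10 for *Csf1r*. The means of 7 of the 8 genes were lower in *ISM1-/-*, with a median log2 fold change of −0.11 beside 0.0043 over all genes tested. None of the 8 genes reached the 2-fold change that the study asked for, in edgeR or in DESeq2, while 0.567% of all genes both passed the threshold and reached it in edgeR. An unadjusted p under 0.05 was found for 1 of the 8 and for 15.8% of all genes.

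**Figure D1:**
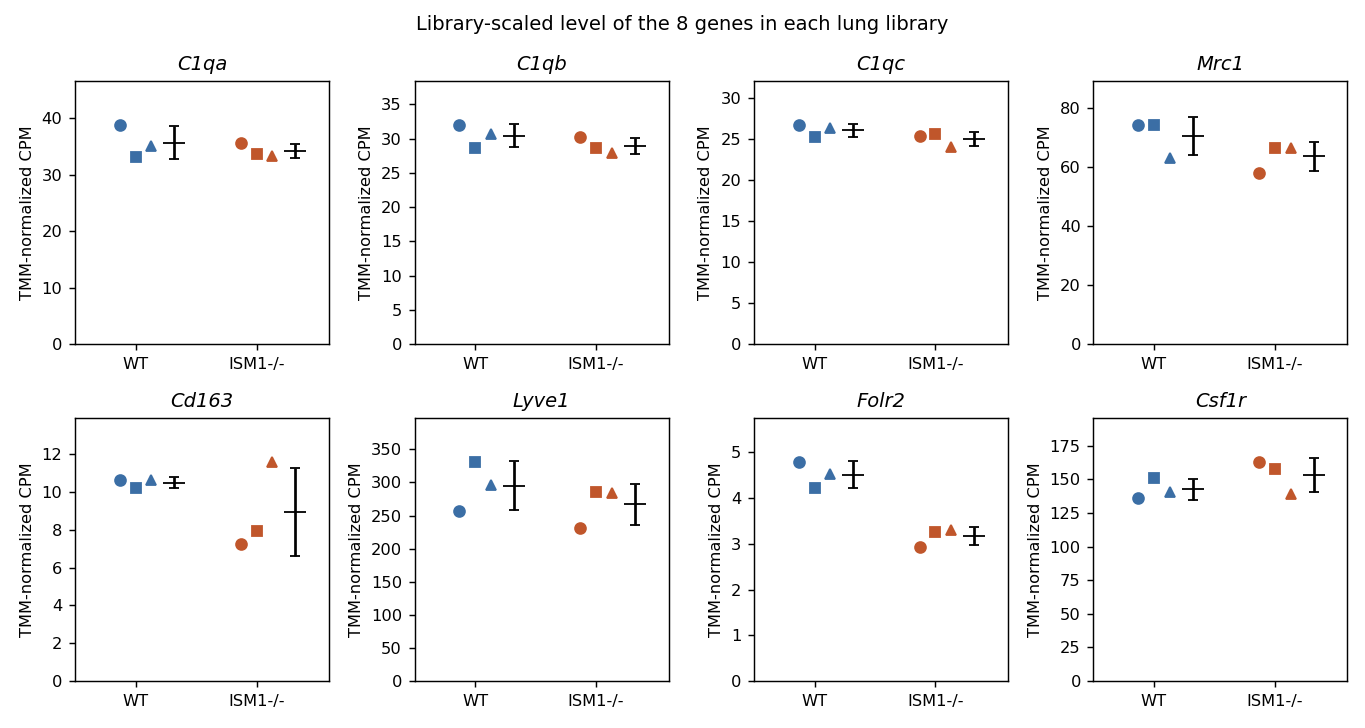
TMM-normalized CPM (vertical axes, each from 0) of the 8 genes in the WT and *ISM1-/-* lung libraries. Circles, squares and triangles are replicates 1, 2 and 3, and the bars give the mean ± SD (n = 3). The genotypes overlap in every gene except *Folr2*, where the *ISM1-/-* libraries lie between 2.94 and 3.31 CPM and the WT libraries between 4.22 and 4.80 CPM.

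None of the genes of the C1q chains passed, and the libraries of the genotypes overlapped in each. They lie side by side on chromosome 4 in the order *C1qb*, *C1qc*, *C1qa*, all on the minus strand and within 18675 bases. *C1qa* (ENSMUSG00000036887, chromosome 4, 136895917 to 136898803) was at 38.9, 33.1 and 35.1 CPM in WT replicates 1, 2 and 3 and at 35.6, 33.7 and 33.3 CPM in *ISM1-/-*. *C1qb* (ENSMUSG00000036905, 136880129 to 136886187) was at 31.99, 28.6 and 30.6 CPM in WT and at 30.2, 28.6 and 27.9 CPM in *ISM1-/-*. *C1qc* (ENSMUSG00000036896, 136889804 to 136893065) was at 26.8, 25.2 and 26.3 CPM in WT and at 25.4, 25.6 and 24.02 CPM in *ISM1-/-*. WT replicate 1 was the highest library for each of the 3 chains, and WT replicate 2 was the lowest WT library of each and lay below at least 1 *ISM1-/-* library. The log2 fold changes were −0.06 for *C1qa*, −0.07 for *C1qb* and −0.06 for *C1qc*, with adjusted p values of 0.771, 0.674 and 0.705 from the edgeR quasi-likelihood test, Benjamini-Hochberg adjusted. The 95% intervals of the fold change were 0.854 to 1.08 for *C1qa*, 0.854 to 1.06 for *C1qb* and 0.867 to 1.06 for *C1qc*, so a fall to less than 0.854 of WT lies outside each interval. *C1qa* had a log2 fold change of 0.0075 once WT replicate 1 was left out.

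The proportions of the chains overlapped between the genotypes. Per length, on the deposited FPKM scale, *C1qa* was at 34.4 ± 2.86 (SD, n = 3) in WT and 32.8 ± 1.49 (SD, n = 3) in *ISM1-/-*, *C1qb* at 28.0 ± 1.58 and 26.5 ± 1.32, and *C1qc* at 24.4 ± 0.775 and 23.2 ± 1.03. The ratio of *C1qb* to *C1qa* in FPKM was 0.816 ± 0.0256 (SD, n = 3) in WT and 0.807 ± 0.00497 (SD, n = 3) in *ISM1-/-*. The ratio of *C1qc* to *C1qa* was 0.711 ± 0.0386 and 0.708 ± 0.0247 in the same groups. The level of *C1qc* depends on the length used, since the FPKM values imply 1074 bases where the gene table gives 1931 bases. With the longer length *C1qc* was at 13.5 in WT on a scale of CPM per kilobase, and the order of the chains was the same.

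**Figure D2:**
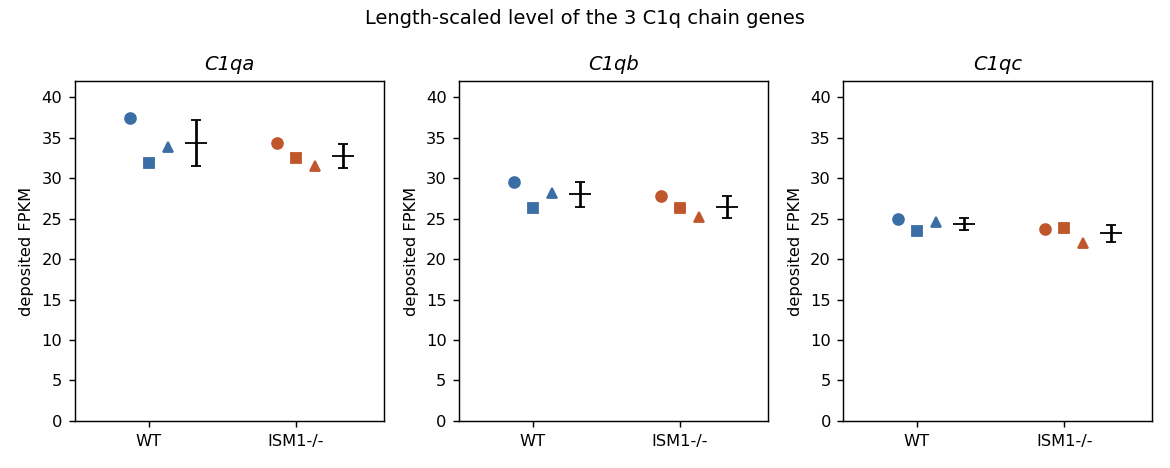
Deposited FPKM of *C1qa*, *C1qb* and *C1qc* (vertical axes from 0 to the same maximum) in the WT and *ISM1-/-* libraries, with symbols for replicates 1 to 3 and bars for the mean ± SD (n = 3). The chains keep the order *C1qa*, *C1qb*, *C1qc* in both genotypes, with means of 34.4, 28.0 and 24.4 in WT and of 32.8, 26.5 and 23.2 in *ISM1-/-*.

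The 3 chains had similar patterns over the libraries. After each gene's log2 CPM was centred on its mean over the 6 libraries, *C1qa* and *C1qb* differed by a root mean square of 0.0279 and *C1qb* and *C1qc* by 0.0351, the closest of all pairs among the 8 genes. *C1qa* and *Cd163* differed by 0.258. Of 12489 other genes that averaged 5 CPM or more, 13 (0.104%) were as close to the mean of the 3 chains as the most distant chain was. The closest 5 were *Ccdc120*, *Erg28*, *Mcat*, *Tab1* and *Cdk5rap3*, at root mean square differences from 0.012 to 0.0197. Each chain is itself part of the mean of the chains, which lowers its distance and so the share of 0.104%. The mean of the chains itself varied by only 0.0627 on this scale, so the likeness is one of nearly flat patterns over 6 libraries.

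The stretches just upstream of *C1qb* and *C1qc* are shown because these neighbours had similar, nearly flat patterns. They come from RefSeq on GRCm38.p6, and each runs 5′ to 3′ and ends within a few bases of an annotated start, that of the gene table for *C1qc*. RefSeq's table had promoter entries for 5 of the 8 genes, *C1qb*, *C1qc*, *Folr2*, *Mrc1* and *Cd163*, of which *Folr2* had 2. Capitals mark the letters AGGAAG, the core bound by ETS factors such as the macrophage regulator PU.1, and TGCTGA, part of the element bound by MAF factors, on either strand (CTTCCT and TCAGCA). The motifs do not overlap in the stretches printed.
C1qb, chr4:136886201-136886350, minus strand: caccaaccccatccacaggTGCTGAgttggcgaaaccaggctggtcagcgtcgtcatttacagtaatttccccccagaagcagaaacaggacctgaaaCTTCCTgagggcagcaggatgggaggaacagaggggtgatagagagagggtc
C1qc, chr4:136893066-136893164, minus strand: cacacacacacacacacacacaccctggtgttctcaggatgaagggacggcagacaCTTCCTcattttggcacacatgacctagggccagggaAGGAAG
In the 250 bases before the RefSeq start, AGGAAG was found 1 time in *C1qb* and 2 times in *C1qc*, 3 times in *Mrc1* and not in *Cd163*. TGCTGA was found 1 time in *C1qb* and not in *C1qc*, *Mrc1* or *Cd163*. Over all 32851 promoter entries, 29.5% held AGGAAG and 16.1% held TGCTGA in a window of the same length. These matches describe the letters only.

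*Folr2* (ENSMUSG00000032725, chromosome 7, 101839988 to 101857194, minus strand) encodes folate receptor beta, which binds folate at the surface of macrophages and is used as a marker of resident tissue macrophages. The 3 WT libraries held 181, 175 and 175 reads of it, and the *ISM1-/-* libraries 125, 124 and 129. This gave 4.80, 4.22 and 4.53 CPM in WT and 2.94, 3.27 and 3.31 CPM in *ISM1-/-*. Every *ISM1-/-* library lay below every WT library, which was so for 12.3% of all genes tested. The mean fell from 4.51 ± 0.292 to 3.17 ± 0.201 CPM (SD, n = 3 each), or to 70.3% of WT. The log2 fold change was −0.51, with a standard error of 0.135 (adjusted p = 0.0899 in the edgeR quasi-likelihood test, Benjamini-Hochberg adjusted), and the 95% interval of the fold change was 0.570 to 0.866. DESeq2 gave the same direction with an adjusted p of 0.0765.

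The call of *Folr2* lies close to the threshold. Its adjusted p in the same edgeR test was above 0.1 when WT replicate 1 (0.194), WT replicate 2 (0.191), WT replicate 3 (0.213), *ISM1-/-* replicate 1 (0.274) or *ISM1-/-* replicate 2 (0.206) was left out, and 0.0822 without *ISM1-/-* replicate 3. The fold change, as log2, stayed between −0.56 and −0.45 in these 6 fits. The antisense gene *Gm10602* shares 2784 bases with *Folr2* on the other strand. Its WT libraries held 259, 219 and 248 reads and its *ISM1-/-* libraries 241, 244 and 205, and since the sources name no strand setting for the counting, reads in the shared stretch could have gone to either gene.

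*Folr2* was also lower beside other genes of the 8. Against the summed CPM of the 3 C1q chains it stood at 4.92%, 4.85% and 4.92% in WT and at 3.23%, 3.72% and 3.88% in *ISM1-/-*. Against *Mrc1* it stood at 6.45 ± 0.756% (SD, n = 3) in WT and 4.98 ± 0.0789% (SD, n = 3) in *ISM1-/-*. Against *Lyve1* it stood at 1.866%, 1.272% and 1.526% in WT and at 1.269%, 1.143% and 1.165% in *ISM1-/-*, so these groups nearly touched. The genotypes did not overlap in these ratios, nor do they in *Folr2* itself. Since *Folr2* is the numerator of each, the ratios are not a separate result. The upstream stretch of each of the 2 RefSeq starts of *Folr2* is shown, since this is the gene that changed. The capitals have the same meaning as above.
Folr2, distal start, chr7:101857195-101857344, minus strand: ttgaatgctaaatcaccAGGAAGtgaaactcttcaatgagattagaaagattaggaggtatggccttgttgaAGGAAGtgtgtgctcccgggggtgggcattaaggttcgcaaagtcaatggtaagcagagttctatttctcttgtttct
Folr2, proximal start, chr7:101845332-101845481, minus strand: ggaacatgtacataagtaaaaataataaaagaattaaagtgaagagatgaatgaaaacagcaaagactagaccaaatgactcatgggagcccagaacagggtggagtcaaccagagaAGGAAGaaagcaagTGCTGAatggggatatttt
In the 250 bases before each RefSeq start, AGGAAG was found 2 times at the distal start and 1 time at the proximal start, and TGCTGA 1 time at each.

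In the list of folate receptors, transport and use, none of the 7 tested genes passed (1 at an unadjusted p under 0.05, and 0 in DESeq2 with its adjusted p). Their median log2 fold change was −0.0487. *Folr1*, the gene of folate receptor alpha, was at 0.337 ± 0.117 and 0.473 ± 0.158 CPM in WT and *ISM1-/-* (SD, n = 3 each), with only 8 to 24 reads per library. The gene at an unadjusted p under 0.05 was *Izumo1r*, also at few reads, with 0.392 ± 0.176 CPM in WT and 0.916 ± 0.403 CPM in *ISM1-/-*. Its groups overlapped (log2 fold change 1.23, adjusted p = 0.183 in the edgeR test).

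*Cd163* encodes the macrophage receptor that takes up complexes of haemoglobin and haptoglobin, and in it 1 library decided the result. The gene (ENSMUSG00000008845, chromosome 6, 124304656 to 124330527, plus strand) was at 10.7, 10.2 and 10.7 CPM in WT. In *ISM1-/-* it was at 7.27, 7.93 and 11.6 CPM. Replicates 1 and 2 of *ISM1-/-* lay below all WT libraries and replicate 3 lay above all of them, so the groups overlapped and the SD was 0.269 CPM in WT against 2.34 CPM in *ISM1-/-*. The log2 fold change was −0.23, with a standard error of 0.160 (adjusted p = 0.538 in the edgeR quasi-likelihood test, Benjamini-Hochberg adjusted). Without *ISM1-/-* replicate 3 it was −0.47 with an adjusted p of 0.0346. More genes passed in that fit over the whole series as well, 1470 against 882 with all 6 libraries. That library also had the highest summed level of the adipocyte list within its genotype, 134 CPM against 64.9 and 72.9 CPM, and the part of this in *Cd163* was not tested.

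In the list of haemoglobin and haem scavenging genes, 1 of 11 tested genes rose and 1 fell, with a median log2 fold change of −0.118. *Hp*, which encodes haptoglobin, the ligand of CD163 when bound to haemoglobin, fell from 809 ± 76.7 to 620 ± 40.3 CPM (SD, n = 3 each; log2 fold change −0.38, adjusted p = 0.0426 in the edgeR test). *Cd163l1*, which encodes a relative of CD163 known from gamma delta T cells, rose from 2.02 ± 0.207 to 4.63 ± 1.77 CPM (log2 fold change 1.19, adjusted p = 0.0577 in the edgeR test). *Hmox1*, the gene of the enzyme that breaks down haem, was at 32.3 ± 1.63 CPM in WT and 29.8 ± 4.10 CPM in *ISM1-/-*, and its adjusted p was 0.629 in the edgeR test. The ferritin genes *Fth1* and *Ftl1* were the most abundant of the list, with log2 fold changes of −0.12 each.

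*Mrc1* encodes the mannose receptor CD206, which interstitial and alveolar macrophages both express. The gene (ENSMUSG00000026712, chromosome 2, 14229392 to 14332057, plus strand) was at 74.2, 74.3 and 62.9 CPM in WT and at 58.0, 66.5 and 66.5 CPM in *ISM1-/-*. The lowest WT library lay below 2 of the *ISM1-/-* libraries. The fitted log2 fold change was −0.15, with a standard error of 0.0843 (adjusted p = 0.450 in the edgeR quasi-likelihood test, Benjamini-Hochberg adjusted), with a 95% interval of the fold change from 0.793 to 1.03. The host gene of the microRNA precursor *Mir511* is *Mrc1*, and *Mir511* itself had 1 count over the 6 poly-A libraries. Of the other members of the mannose receptor family, *Mrc2*, *Pla2r1* and *Ly75*, none passed in edgeR or DESeq2 or had an unadjusted p under 0.05, and their log2 fold changes lay between −0.09 and 0.13.

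Markers of alveolar macrophages bear on *Mrc1*, since these cells express it as well. All 14 tested genes of that list were detected, 1 fell, and 10 of the 14 had a lower mean in *ISM1-/-*, with a median log2 fold change of −0.129. The gene that fell was *Cidec* (log2 fold change −0.90, adjusted p = 0.0186 in the edgeR test), which encodes a lipid droplet protein and also stands in the adipocyte list. *Chil3* was at 345 ± 27.6 CPM in WT and 312 ± 34.0 CPM in *ISM1-/-*, and *Car4*, which capillary cells also express, at 155 ± 3.67 and 159 ± 9.70 CPM. The summed level of the list ran from 769 to 845 CPM in WT and from 698 to 813 CPM in *ISM1-/-*. The part of these cells in the level of *Mrc1* was not tested.

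*Lyve1* encodes a hyaluronan receptor of lymphatic vessels and of a subset of interstitial macrophages around blood vessels. It was the most abundant of the 8 genes. The gene (ENSMUSG00000030787, chromosome 7, 110850607 to 110863239, minus strand) was at 257, 332 and 297 CPM in WT and at 232, 286 and 284 CPM in *ISM1-/-*. Replicate 1 was the lowest library of each genotype, and the groups overlapped. The fitted log2 fold change was −0.14, with a standard error of 0.105 (adjusted p = 0.569 in the edgeR quasi-likelihood test, Benjamini-Hochberg adjusted), with a 95% interval of the fold change from 0.770 to 1.06.

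None of the 9 tested markers of lymphatic endothelium passed in the edgeR test (2 at an unadjusted p under 0.05, and 1 in DESeq2), their median log2 fold change was −0.07, and their summed level ran from 409 to 455 CPM in WT and from 424 to 451 CPM in *ISM1-/-*. *Flt4*, the gene of VEGF receptor 3, was at 93.1 ± 1.68 CPM in WT and 85.6 ± 5.11 CPM in *ISM1-/-*, and *Pdpn*, which alveolar type 1 cells also express, at 141 ± 24.1 and 152 ± 11.2 CPM (SD, n = 3 each). *Prox1* and *Tbx1* had log2 fold changes of −0.26 each, *Reln* of −0.21 and *Gng11* of 0.21. Of the 9 markers, 6 had a lower and 3 a higher mean in *ISM1-/-*, and *Pdpn* was the largest part of the summed level. In the list of hyaluronan synthesis, binding and turnover, 1 of 13 tested genes changed. *Tmem2*, which encodes a cell-surface protein implicated in hyaluronan breakdown, rose from 244 ± 14.7 to 307 ± 5.09 CPM (log2 fold change 0.33, adjusted p = 0.0261 in the edgeR test). *Cd44*, the gene of another hyaluronan receptor, was at 135 ± 7.96 and 138 ± 5.49 CPM.

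*Csf1r* was the single gene of the 8 with a higher mean in *ISM1-/-*. Its product, the receptor tyrosine kinase for CSF1 and IL-34, keeps monocytes and macrophages alive. The gene (ENSMUSG00000024621, chromosome 18, 61105572 to 61132149, plus strand) was at 136, 151 and 141 CPM in WT and at 163, 158 and 139 CPM in *ISM1-/-*. Replicates 1 and 2 of *ISM1-/-* lay above all WT libraries and replicate 3 lay among them. The log2 fold change was 0.10, with a standard error of 0.0730 (adjusted p = 0.548 in the edgeR quasi-likelihood test, Benjamini-Hochberg adjusted), with a 95% interval on the log2 scale from −0.06 to 0.27. It overlaps *Hmgxb3* on the other strand over 871 bases, and *Hmgxb3* had between 1668 and 2061 counts per library.

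The genes of the receptor's ligands did not pass. *Csf1* was at 73.6 ± 12.4 and 73.9 ± 4.49 CPM in WT and *ISM1-/-* (SD, n = 3 each), and *Il34* at 15.0 ± 0.0944 and 15.9 ± 0.210 CPM, with adjusted p values of 0.989 and 0.660 in the edgeR test. Of 14 ligand, growth factor and regulator genes tested, 1 fell. It was *Cebpb*, a C/EBP transcription factor gene of macrophages and many other cells, which went from 111 ± 10.8 to 80.0 ± 15.3 CPM (log2 fold change −0.47, adjusted p = 0.0967 in the edgeR test). *Spi1*, which encodes PU.1, was at 34.3 ± 2.19 and 35.4 ± 10.1 CPM. *Ets2* and *Cebpa* were the most abundant of the list, with log2 fold changes of 0.11 and −0.28. Among the related receptor kinases *Kit*, *Flt3*, *Pdgfra* and *Pdgfrb*, none passed in either tool or had an unadjusted p under 0.05.

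The markers of monocytes, which express *Csf1r* as well, had a higher mean in *ISM1-/-* in 10 of 13 genes, with a median log2 fold change of 0.143. None of the 13 passed in the edgeR test (2 at an unadjusted p under 0.05, and 1 in DESeq2), and between 0 and 5 passed when 1 library was left out. The classical monocyte gene *Ly6c2* was at 12.01 ± 1.70 and 11.7 ± 3.11 CPM (SD, n = 3 each), and *Ccr2* averaged 36.03 and 38.7 CPM. Other genes of the list differed more. *Cd300e* (log2 fold change 0.60), *Spn* (0.43) and *Adgre4* (0.40) differed most upward, and *Nr4a1* (−0.37) and *Eno3* (−0.25) most downward. *Ace* and *Chil1*, the most abundant of the list, are also expressed by endothelium and epithelium, and they had log2 fold changes of 0.12 and 0.04. The part of monocytes in the level of *Csf1r* was not tested.

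**Figure D3:**
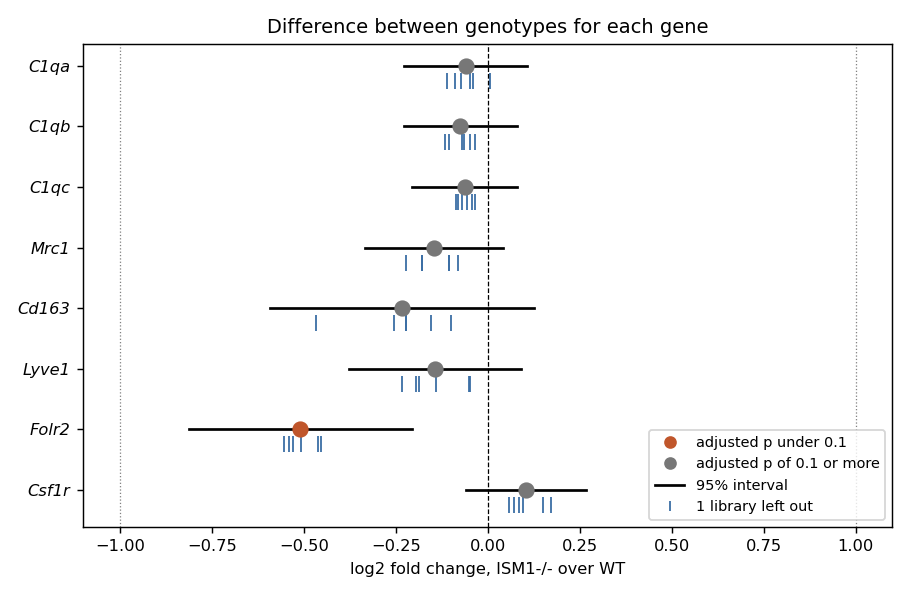
Log2 fold change of each of the 8 genes, *ISM1-/-* over WT (horizontal axis, dotted lines at a 2-fold change). Points are the fits of all 6 libraries, black bars their 95% intervals, and blue ticks the 6 fits that leave out 1 library each. The interval of *Folr2* lies below 0, from −0.81 to −0.21, and those of the other 7 genes include 0, with 1 tick of *Cd163* apart at −0.47.

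On the FPKM scale, which allows levels of different genes to be compared, *Lyve1* stood highest, at 152 ± 18.3 over the 6 libraries (SD, n = 6). It was followed by *Csf1r* (34.5 ± 2.70) and *C1qa* (33.6 ± 2.22), whose libraries overlapped. *C1qb* (27.2 ± 1.55), *C1qc* (23.8 ± 1.03), *Mrc1* (18.0 ± 1.71), *Folr2* (4.77 ± 0.967) and *Cd163* (2.51 ± 0.433) followed without overlap between neighbours in that order. In WT alone, the deposited FPKM put *C1qa* (34.4) slightly above *Csf1r* (33.3). With the gene table's length column in place of the FPKM lengths, *C1qa* was at 34.3 and *Csf1r* at 29.2 in WT. The WT levels of *Lyve1* (101.1), *C1qc* (13.5), *Mrc1* (11.1) and *Folr2* (2.92) were then more than 1.5 times lower. The WT order of the 8 genes was the same with either length. Compared with the mean centred log2 CPM of *Mrc1*, *Cd163*, *Lyve1* and *Folr2*, the closest genes included *Calml4*, *Intu*, *Cfap298* and *2010300C02Rik*, at root mean square differences from 0.0361 to 0.0412 over 6 libraries. These 4 receptor genes were unlike each other by comparison, since 2081 of 12489 genes (16.7%) were at least as close to their mean as the most distant of the 4. Here too each of the 4 is itself part of that mean, which lowers its distance and so this share.

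The other markers of interstitial macrophages moved unevenly. Of 24 tested genes, none of them among the 8, 3 fell and 0 rose, 15 had a lower mean in *ISM1-/-*, and the median log2 fold change was −0.06. *F13a1*, which encodes a subunit of coagulation factor XIII and is a gene of perivascular macrophages and of platelets, was at 23.5, 21.9 and 25.2 CPM in WT and at 12.3, 16.6 and 16.1 CPM in *ISM1-/-*. The groups of *F13a1* did not overlap (log2 fold change −0.65, standard error 0.114, adjusted p = 0.0238 in the edgeR quasi-likelihood test, Benjamini-Hochberg adjusted), and it passed whichever of the 6 libraries was left out. *Cd209f*, which encodes a C-type lectin of macrophages, counted 97, 83 and 81 reads in WT against 40, 56 and 37 in *ISM1-/-* (log2 fold change −0.99, standard error 0.236, adjusted p = 0.0634 in the edgeR test), and its adjusted p stayed under 0.1 in the fit without *ISM1-/-* replicate 2 and rose to between 0.102 and 0.213 in the other 5. The range of this list's calls over the 6 fits was 1 to 3.

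*Cbr2*, the other gene of that list to fall, is also abundant in club cells of the airway. It went from 2844 ± 59.9 CPM to 2242 ± 156 CPM (log2 fold change −0.34, adjusted p = 0.0342 in the edgeR test), and the call was lost without WT replicate 2 (0.145), WT replicate 3 (0.110) or *ISM1-/-* replicate 1 (0.115). The club cell gene *Scgb1a1*, looked at after these values were seen, fell with it (log2 fold change −0.51, adjusted p = 0.0270 in the edgeR test). The macrophage genes *Adgre1* (F4/80), *Cx3cr1*, *Apoe* and *Stab1* did not pass, with log2 fold changes of 0.04, 0.22, 0.05 and −0.04. Others that did not pass differed more, with *Timd4* at −0.49, *Clec10a* at −0.43, *Fcna* at −0.41, *Ccl12* at 0.54 and *Mertk* at 0.25. Of the 24 genes of the interstitial macrophage list, 15 had a lower and 9 a higher mean in *ISM1-/-*. Of the leukocyte and macrophage genes in the general list, 1 of 10 rose. This was *Ptprc* (CD45), which went from 139 ± 11.5 to 184 ± 22.4 CPM (log2 fold change 0.40, adjusted p = 0.0546 in the edgeR test), while *Cd68* was at 28.2 ± 2.34 and 26.1 ± 4.65 CPM and *Lyz2* at 3474 ± 254 and 3234 ± 212 CPM. In that list 6 genes had a higher mean in *ISM1-/-*, among them *Cd52* (log2 fold change 0.31) and *Itgam* (0.23), and 4 had a lower mean.

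Lists of fat and heart muscle genes were measured in the same libraries. Of 10 adipocyte genes, 9 fell, with a median log2 fold change of −1.59 and a summed level from 217 to 270 CPM in WT against 64.9 to 134 CPM in *ISM1-/-*. *Plin1* (log2 fold change −1.88), *Cidec* (−0.90), *Cfd* (−2.10) and *Fabp4* (−1.46) had the lowest p values, and over the 6 fits that left out 1 library the number that passed ranged from 3 to 9. Of 10 cardiomyocyte genes, 1 fell (*Myl7*, log2 fold change −1.11, adjusted p = 0.0970 in the edgeR test), 0 passed in DESeq2, and all 10 had a lower mean in *ISM1-/-*. The median log2 fold change of these genes was −1.01, and 9 had an unadjusted p under 0.05 in the edgeR test. Their summed level was 1687 CPM in WT replicate 1, 576 and 681 CPM in WT replicates 2 and 3, and 325 to 608 CPM in *ISM1-/-*. Macrophages with *Folr2*, *F13a1*, *Cd163*, *Lyve1* and *Mrc1* are known from fat and heart as well as from lung. The part of fat and heart tissue in the levels of these genes was not tested. Of 8 mesothelial genes, 1 rose (*Upk1b*, log2 fold change 0.35, adjusted p = 0.0817 in the edgeR test) and all 8 had a higher mean in *ISM1-/-*, with a median log2 fold change of 0.178. Dendritic cell genes had a median of 0.0799, and none of 11 passed in the edgeR test (3 at an unadjusted p under 0.05, and 1 in DESeq2).

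**Figure D4:**
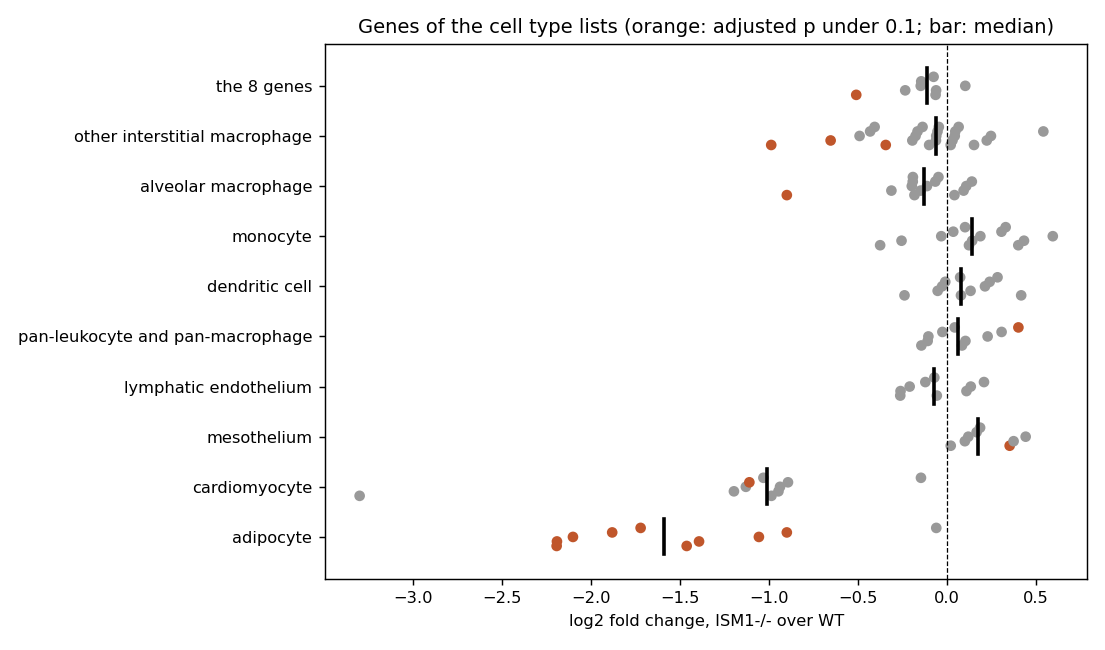
Log2 fold change, *ISM1-/-* over WT (horizontal axis), of each tested gene in the cell type lists and of the 8 genes (rows). Orange points have an adjusted p under 0.1, grey points do not, and the black bars are medians, which run from −1.59 for adipocyte genes to 0.178 for mesothelial genes, with −0.11 for the 8 genes.

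None of 11 tested genes of the classical complement pathway and its receptors passed in the edgeR test (1 at an unadjusted p under 0.05, and 1 in DESeq2), and their median log2 fold change was 0.0635. The proteases that C1q carries are encoded by *C1ra*, at 80.0 ± 7.56 CPM in WT and 76.3 ± 3.64 CPM in *ISM1-/-*, and by *C1s1*, at means of 158 and 165 CPM. The downstream components *C4b* and *C3* were at 316 ± 60.9 and 315 ± 56.2 CPM and at 909 ± 50.6 and 885 ± 96.1 CPM (SD, n = 3 each). *Serping1*, the inhibitor of the C1 proteases, had a log2 fold change of −0.11. Of 10 genes of C1q receptors and binding proteins, 1 passed, the collagen-binding integrin gene *Itga2*, which rose from 42.9 ± 1.92 to 50.1 ± 1.09 CPM (log2 fold change 0.23, adjusted p = 0.0997 in the edgeR test). *Itgb1* and *Lrp1* were the most abundant of these, with log2 fold changes of 0.20 and −0.20.

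C1q shares its globular head domain with a family of secreted proteins that includes adiponectin. Of 25 genes of this family, 15 were tested, 2 fell and 0 rose. The collagen gene *Col8a2* fell from 21.3 ± 0.516 to 14.9 ± 1.09 CPM (log2 fold change −0.52, adjusted p = 0.0163 in the edgeR test), and the adiponectin gene *Adipoq* from 12.4 ± 2.23 to 3.76 ± 2.39 CPM (log2 fold change −1.72, adjusted p = 0.0343 in the edgeR test). *Emilin1* and *Mmrn2*, the most abundant, had log2 fold changes of −0.03 and 0.25 and did not pass. In the list of apoptotic cell uptake, which C1q promotes, 1 of 22 tested genes fell and 0 rose, with a median log2 fold change of 0.0046. It was *Tyro3*, a receptor kinase of the TAM family, which went from 28.1 ± 2.18 to 21.5 ± 1.09 CPM (log2 fold change −0.38, adjusted p = 0.0375 in the edgeR test). Its relative *Mertk* was at 73.0 ± 6.26 and 86.8 ± 8.91 CPM and the ligand gene *Gas6* at 390 ± 29.9 and 396 ± 5.52 CPM, and neither passed. The scavenger receptor gene *Cd36* was the most abundant of the list, with a log2 fold change of −0.07. When 1 library was left out, the number that passed fell to 0 in at least 1 of the 6 fits for every pathway list with a call except the C1q and adiponectin family, where it ranged from 1 to 3, and for the general leukocyte, mesothelial and cardiomyocyte lists.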

How the data were processed

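Lung RNA of 3 WT and 3 *ISM1-/-* mice was sequenced by the study as poly-A enriched, strand-specific read pairs. Per the paper and the labels, the authors removed low-quality reads, mapped the rest to GRCm38 with STAR and deposited raw counts per gene. They also deposited FPKM values, for which they used 1 length per gene, equal to or shorter than the length column of the table. The counting program, its strand setting and versions are not given in the sources used here. Library totals were 37606133 to 42345042, and every pair differed by more than sampling noise. The paper calls the libraries of a group biological replicates.

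The tests were run with edgeR 4.0.16 under R 4.3.3 (TMM, estimateDisp, glmQLFit, glmQLFTest, genotype only). Genes with 0.5 CPM in at least 1 library were tested, with Benjamini-Hochberg adjustment over all of them and a threshold of 0.1. Intervals of 95% come from the fit's standard error and degrees of freedom. Likeness used log2 CPM with a prior count of 2. The fit was tested on simulated counts.

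Alternatives were DESeq2 1.42.0, other scalings, filters and thresholds, a replicate block, and the omission of each library. The 8 genes and the 19 lists were chosen with earlier results of these data known. Genes named from a list were those that passed (at most 4, by p) and the 2 most abundant. Others were named for their role or their fold change after their values were seen. A few genes that this rule would name are not reported here.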

Additional observations from a re-analysis of the deposited data

How the results depend on the processing

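For the 8 genes, 1 passed at an adjusted p under 0.1 (*Folr2*), and the number was 1 as well with DESeq2, RLE size factors, library totals only and the 3 other filters on low counts. It was 0 at an adjusted p under 0.05 and with a 2-fold minimum, and 0 with the replicate number as a block (log2 fold change of *Folr2* −0.51, adjusted p = 0.120 in edgeR). It ranged from 0 to 2 when each library was left out, being 2 (*Folr2* and *Cd163*) without *ISM1-/-* replicate 3 and 0 without any other. The log2 fold change of *C1qa* ranged from −0.111 to 0.0075 when each library was left out, turning without WT replicate 1, and no other direction among the 8 genes turned. Over all genes, 882 passed. The number was 1632 with no filter on low counts, 455 at an adjusted p under 0.05 and 106 with a 2-fold minimum, and it ranged from 150 to 1470 when each library was left out, lowest without WT replicate 2 and highest without *ISM1-/-* replicate 3. Of 203 distinct list genes tested, 22 passed, against 44 with no filter on low counts, 14 at an adjusted p under 0.05 and 10 with a 2-fold minimum, with a range from 6 to 39 when each library was left out. The causes were not tested, and leaving out a library changes both the number of libraries and which ones remain. With the length column of the gene table and TMM scaling, in place of the deposited FPKM, the WT levels were 13.5 for *C1qc*, 11.1 for *Mrc1*, 1.92 for *Cd163*, 101.1 for *Lyve1*, 2.92 for *Folr2* and 29.2 for *Csf1r*, while those of *C1qa* and *C1qb* moved by less than 1 SD. Libraries that share replicate number 1 or 2 did not deviate together (correlations over genes of −0.0035 and 0.0056). For number 3 the correlation was 0.152, the highest of all pairs of a WT and an *ISM1-/-* library. Of the 6 libraries, 2 were closest to their own number, both of number 3, so the block fit rests on a shared number only. At 124 to 181 counts per library, *Folr2* is the least deeply counted of the 8 genes.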
